A study of Mus musculus with 74 samples.

Results

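Mitochondrial–nuclear exchange (MNX) mice carry the nuclear genome of one inbred strain and the mitochondrial DNA (mtDNA) of another, made by pronuclear transfer. HC mice, with a C3H/HeN nuclear genome and C57BL/6J mtDNA, were set against wild-type CC mice, in which both genomes are C57BL/6J. The mtDNA and the sequence of *mt-TR*, the mitochondrial tRNA for arginine, were therefore the same in both genotypes, and the comparison asked whether fragments of that one tRNA differed with the nuclear genome. Of 74 small RNA libraries of mouse lung, the 22 labelled HC or CC in batches 2 and 3 were used: 10 HC (4 females and 4 males of batch 2, 2 males of batch 3) and 12 CC (6 females and 5 males of batch 2, 1 male of batch 3). HC libraries labelled batch 1 were left out.

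The animals of both genotypes were healthy, untreated adults. Removal of RNA modifications before library preparation is described for the liver RNA of the study and not for lung. CC mice came from commercial vendors and MNX mice were bred in-house, so the nuclear genome and the origin of the animals cannot be told apart. The labels speak of pooling of intact RNA and do not say whether a library is 1 animal, so p-values measure the spread between libraries only. The labels do not say what a batch marks. In batch 2, library names of HC males and CC males carry different prefixes, whereas HC and CC females share the same prefix. What the prefix marks is not stated, so in males of batch 2 it cannot be told apart from the nuclear genome. Because the table holds reads of *mt-TR* alone, lung markers could not be checked in it, and neither could the depth of whole libraries.

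tRNAs are cut into shorter RNAs, called tRNA fragments (tRF), by ribonucleases that often act in single-stranded loops such as the anticodon loop. The 3′ CCA is not encoded in the tRNA gene; it is added after transcription, and its last base carries the amino acid. A mitochondrial tRNA is transcribed from mtDNA, whereas the enzymes that process it, modify it, add CCA and cut it are encoded in the nucleus, which is the part of the genome that differed here.

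The gene (symbol mt-Tr, ENSMUSG00000064361.1 in GENCODE M21) lies on the + strand of GRCm38 at chrM:9808-9875, is 68 nt long and has no intron in the annotation. With CCA the mature tRNA is 71 nt, and positions below count from 1 at its 5′ end. The anticodon occupies 31 to 33 (chrM:9838-9840) and CCA occupies 69 to 71. Bases 1 to 7 are complementary to bases 61 to 67, the acceptor stem. The mature sequence is shown because every read is an exact stretch of it, with the anticodon and CCA in capitals and T written for U as in the counts table.
mature mt-TR of C mtDNA: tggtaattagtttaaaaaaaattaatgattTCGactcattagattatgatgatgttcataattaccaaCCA

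The fragments shown here, chosen by mean share or number of reads, are named by their first and last base. The first group starts at 20 or 24, upstream of the anticodon, and held the most reads. The second starts at the first anticodon base. The third runs to the end of CCA.
24-45: aatgattTCGactcattagatt
24-44: aatgattTCGactcattagat
24-40: aatgattTCGactcatt
20-45: aattaatgattTCGactcattagatt
31-54: TCGactcattagattatgatgatg
31-55: TCGactcattagattatgatgatgt
46-71: atgatgatgttcataattaccaaCCA
51-71: gatgttcataattaccaaCCA

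The 22 libraries held 2535 *mt-TR* reads of the 5606 in the series, in 384 distinct sequences. Of these sequences, 104 had 1 read and 160 were found in 1 library, and no pair of libraries had identical counts. HC females 4, 5, 6 and 7 held 72, 105, 33 and 47 reads, and CC females 1 to 6 held 64, 117, 5, 13, 100 and 105. HC males 1, 2, 4, 5 and 6 held 110, 139, 8, 82 and 7 reads, and CC males 1 to 6 held 9, 16, 12, 101, 99 and 11. HC male replicate 3 was far larger: the HC libraries held 1883 reads in all and 603 without it, so that it carried 67.98% of them. The other HC libraries lay between 7 and 139 reads, in the same range as CC (5 to 117).

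On the log2(reads + 1) scale HC was higher by 1.17, and 8 of 10 HC libraries were above the CC median. The difference was within the spread between libraries (two-sided exact permutation test within sex and batch, p = 0.162). It was 0.68 without HC male replicate 3 (exact permutation p = 0.359). These are reads counted and not abundances, since the size of each whole library was not available. Sequences found in both genotypes numbered 169, which was 52.0% of the 325 HC sequences and 74.1% of the 228 CC sequences. They numbered 113 without HC male replicate 3 (56.8% of HC and 49.6% of CC), and 70 sequences were found in that library alone.

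Shares and lengths were compared in the 18 libraries with at least 10 reads (8 HC and 10 CC), each library counting once. The number of reads sets their precision. A count of 0 still allows up to 3 reads, which is 0.23% of the reads of HC male replicate 3 and 27.3% of the 11 reads of CC male replicate 6. At equal depth, sequence diversity was similar in value: 10 reads drawn from a library held on average 9.08 ± 0.31 distinct sequences in HC (SD, n = 8) and 8.72 ± 0.95 in CC (SD, n = 10; exact permutation p = 0.298).

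HC reads had the higher mean length, but no length measure passed after adjustment. The mean read length was 24.4 ± 1.16 nt in HC (SD, n = 8) and 23.5 ± 0.83 nt in CC (SD, n = 10), a difference of 0.95 nt adjusted for sex and batch. The exact permutation p was 0.0486, and 0.535 after Benjamini-Hochberg adjustment over the 11 measures of this comparison. When HC male replicate 3, whose mean was 23.7 nt, was left out, the difference was 1.03 nt (exact permutation p = 0.0479). HC females 4, 5, 6 and 7 had means of 25.8, 23.3, 26.1 and 25.04 nt. CC females with enough reads lay between 22.8 and 24.6 nt. Thus 3 of 4 HC females lay above every CC female, and 1 lay inside their range. HC males lay between 23.1 and 24.6 nt and CC males between 22.4 and 24.9 nt, so all HC males lay within the CC range. Leaving out any 1 of 12 libraries (HC females 4, 6 and 7, CC females 1, 2, 4 and 5, HC males 1 and 5, CC males 2, 5 and 6) raised the unadjusted p above 0.05, at most to 0.105, with a difference of 0.75 nt, without HC female replicate 6.

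No length class passed after adjustment. Pooled over libraries, reads of 25 to 29 nt were 28.7% of HC reads (31.01% without HC male replicate 3) and 20.6% of CC reads. Reads of 30 nt or more made up 14.1 ± 4.88% in HC (SD, n = 8) and 12.7 ± 6.32% in CC (SD, n = 10; exact permutation p = 0.595). With the limit set at 25 nt in place of 30 nt, they made up 47.1 ± 12.5% in HC (SD, n = 8) and 32.4 ± 10.6% in CC (SD, n = 10), a difference of 14.9 percentage points (exact permutation p = 0.0136). Counted as a 12th measure beside the 11, its adjusted p was 0.163. The difference was 15.5 points without HC male replicate 3 (exact permutation p = 0.0196), and leaving out each library in turn gave 12.9 to 17.1 points. HC females 4, 5, 6 and 7 had 65.3%, 38.1%, 60.6% and 59.6% of such reads, and CC females had 28.1% to 40%. HC males had 33.1% to 40.9% and CC males 12.5% to 46.5%. As with the means, 3 HC females stood above all CC females and the males overlapped. Over all lengths at once, the distance between the mean HC and CC length distributions was 21.8 percentage points (one-sided exact permutation p = 0.089).

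**Figure D1:**
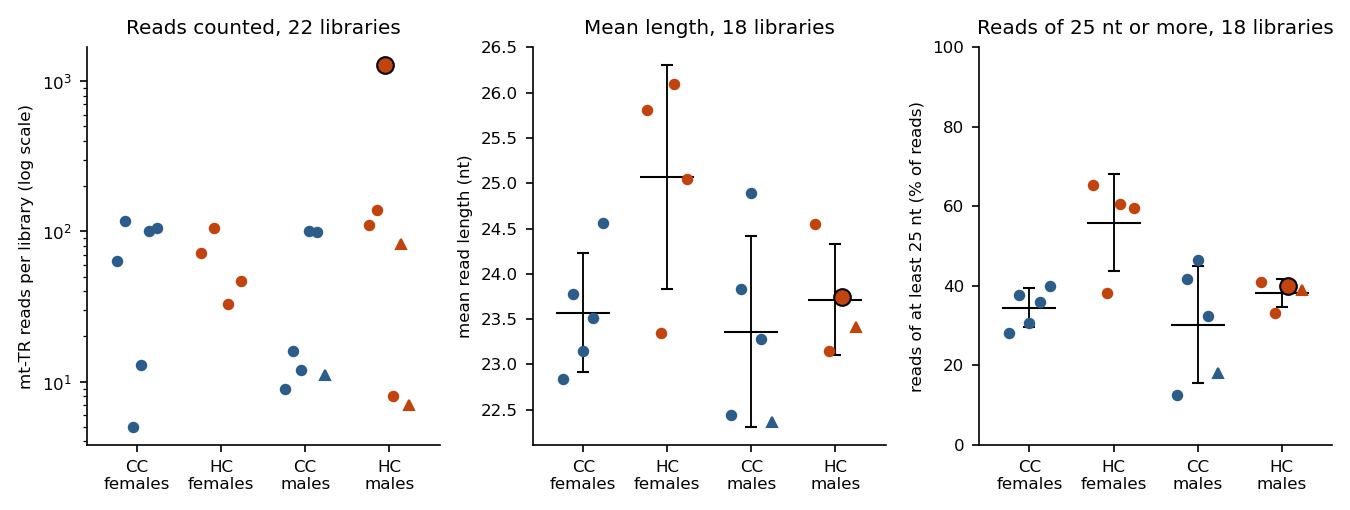
Reads per library (log axis, 22 libraries), mean read length in nt and share of reads of at least 25 nt (18 libraries with at least 10 reads), by genotype and sex. Points are libraries (circles batch 2, triangles batch 3, the large outlined circle HC male replicate 3, the library of most reads), and bars are the mean and SD. Of the 4 HC females, 3 lie above all CC females in length, while HC and CC males overlap.

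Reads came from the middle and the 3′ part of the tRNA in both genotypes. No read began before base 9, so the first bases of the acceptor stem were not covered at all. Base 36, just past the anticodon, was covered by 82.1 ± 8.5% of reads in HC (SD, n = 8) and 81.4 ± 11.9% in CC (SD, n = 10). Base 51 was covered by 51.9 ± 19.5% of HC reads and 41.7 ± 14.6% of CC reads (SD, n = 8 and 10). Base 66, in the 3′ strand of the acceptor stem, was covered by 17.3 ± 13.3% and 19.3 ± 12.9%. HC male replicate 3 departed from both means, with 76.3% of its reads over base 26 and 2.6% over base 66.

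**Figure D2:**
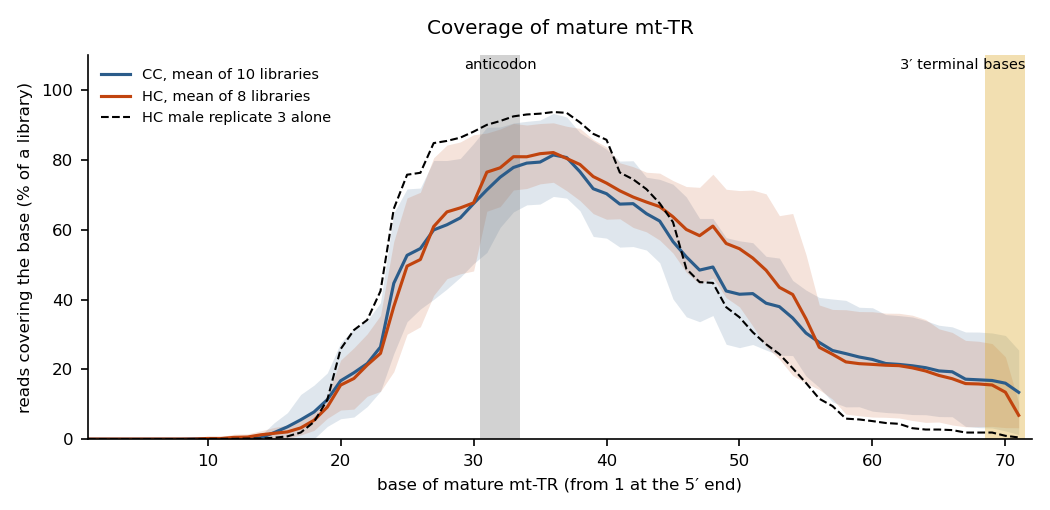
Share of a library's reads that cover each base of mature *mt-TR*, from 1 at the 5′ end. Lines are means over 8 HC and 10 CC libraries, bands are 1 SD, and the dashed line is HC male replicate 3. The HC and CC means run close together up to the anticodon. The dashed line is above both means from base 20 to base 44 and below both at base 51 and beyond.

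By mean share, the most frequent single start in both genotypes was base 24, upstream of the anticodon. In HC, base 25 came near it: without HC male replicate 3 the HC means were 11.96% at base 24 and 11.87% at base 25. The HC medians over all 8 libraries were 9.62% and 12.4%. Base 24 held 13.4 ± 9.94% of reads in HC (SD, n = 8) and 18.3 ± 10.5% in CC (SD, n = 10; exact permutation p = 0.344). Starts before base 24 (1 to 23) held 24.6 ± 10.9% and 26.4 ± 12.7% (p = 0.792 by the same exact test). Starts at 32 to 47 held 14.8 ± 5.55% and 16.8 ± 12.8% (exact permutation p = 0.726), and starts at 48 to 71 held 8.68 ± 7.08% and 11.7 ± 8.95% (exact permutation p = 0.405). None of these classes separated the genotypes.

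Starts at 25 to 31, from just after base 24 to the first base of the anticodon, had the largest difference among the 5 classes. They held 38.5 ± 13.6% of reads in HC (SD, n = 8) and 26.8 ± 15.9% in CC (SD, n = 10), and all 8 HC libraries were above the CC median of 22.8%. The groups overlapped, and the difference of 11.2 percentage points did not pass (exact permutation p = 0.106, adjusted p = 0.585). It was 12.9 points without HC male replicate 3, which was at 24.1% (exact permutation p = 0.082). Within batch 2 it was 15.1 points (exact permutation p = 0.0313), the same as without CC male replicate 6 or HC male replicate 5. Those were the only libraries of batch 3 with enough reads, at 63.6% of 11 reads and 43.9% of 82 reads, so batch 3 alone allowed no test. Without CC male replicate 4 the difference was 13.6 points (exact permutation p = 0.0427).

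The shares of reads separated by genotype in females and not in males. In males of batch 2 genotype went with the prefix of the library name, so the female and male differences are not like for like. HC females 4, 5, 6 and 7 had 31.9%, 26.7%, 57.6% and 57.4% of their reads starting at 25 to 31. CC females 1, 2, 4, 5 and 6 had 21.9%, 17.1%, 7.69%, 25% and 23.8%, and CC female 3, with only 5 reads, had 20.0%. Every HC female was thus above every CC female, by 24.3 points on average (exact permutation p = 0.0079, the smallest that 4 against 5 allows). Adjusted over 11 measures in each sex (22 tests), that p was 0.175. The separation was narrow between HC female 5 (26.7% of 105 reads) and CC female 5 (25% of 100 reads). With each distinct sequence counted once, the females overlapped, at 23.6% to 48.4% in HC and 10% to 26.9% in CC. The difference was then 16.6 points (exact permutation p = 0.0238, unadjusted). The 2 highest values, in HC females 6 and 7, rested on 33 and 47 reads. In males the values overlapped, at 24.1% to 43.9% in HC and 18.8% to 63.6% in CC, with a difference of -2.06 points (exact permutation p = 0.886); within batch 2 it was 3.10 points (p = 0.629 by the same exact test). The female difference exceeded the male one by 26.4 points (exact permutation p = 0.0498, adjusted p = 0.548 over 11 measures).

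Of the 7 bases of the class, the higher share in HC females lay mostly at 25, 27, 28 and 31. Base 25 held on average 10.8% of reads in HC females (n = 4) and 5.19% in CC females (n = 5), base 27 held 10.3% and 4.43%, base 28 held 6.92% and 1.1%, and base 31 held 10.4% and 3.57%. Base 29 held 1.39% in HC females and 2.05% in CC females, base 26 held 2.58% and 2.02%, and base 30 held 1.01% and 0.72%. HC female replicate 6 had 24.2% of its reads at base 31 and HC female replicate 7 had 4.3%, whereas base 27 held 15.2% and 21.3% of them. In HC male replicate 1 base 31 held 25.5% of reads.

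**Figure D3:**
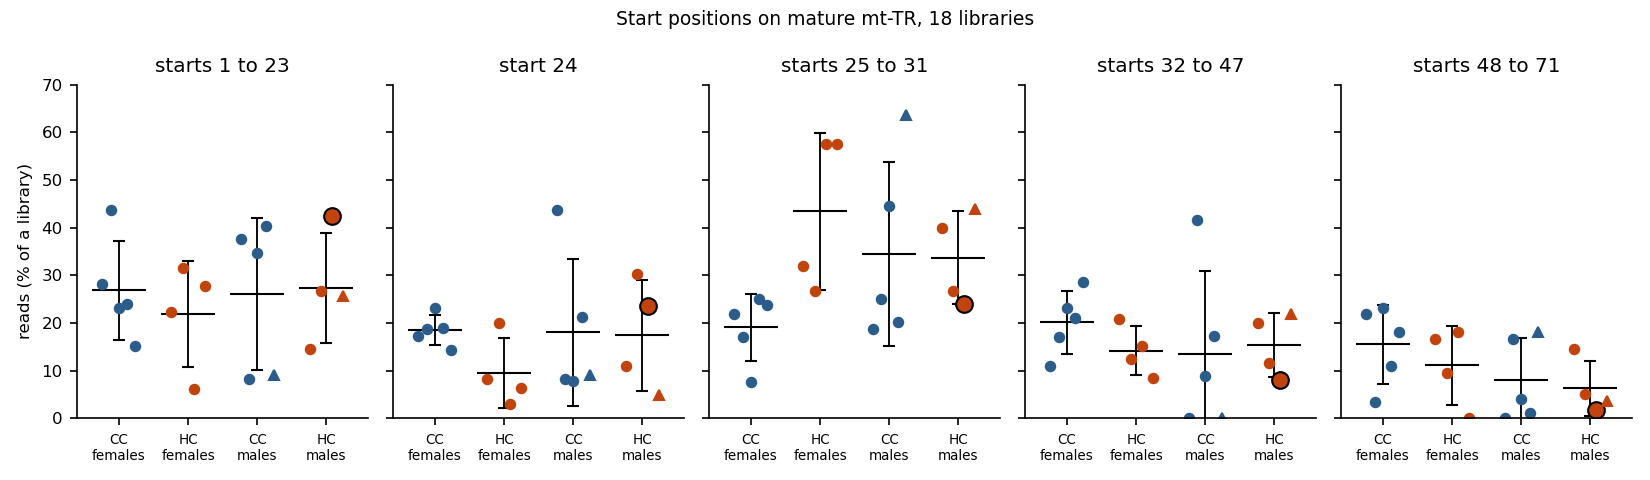
Share of a library's reads that start in each of 5 classes of positions, by genotype and sex, in 18 libraries with at least 10 reads. Points are libraries (circles batch 2, triangles batch 3, large outlined circle HC male replicate 3); bars are the mean and SD, cut at 0. At starts 25 to 31 all 4 HC females (26.7% to 57.6%) are above all 5 CC females (7.69% to 25%), and the males overlap; HC and CC overlap in the other classes.

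Position by position, 52 start and end positions with at least 20 reads were tested, and 0% passed after adjustment (lowest adjusted p = 0.212 by the exact permutation test). Of these, 3 had an unadjusted p under 0.05, all higher in HC, and they are named here after their values were seen. Start 41 held 1.19 ± 0.98% of reads in HC (SD, n = 8) and 0.1 ± 0.32% in CC (SD, n = 10; exact permutation p = 0.0041), on 22 reads in all. Most of these were in HC male replicate 3 (1.09% of its reads). They came from 6 HC libraries and 1 CC library. Start 41 thus met the minimum of 20 reads through HC, so its p is no support for a difference. End 52 held 4.99 ± 2.44% and 2.59 ± 3.2% (exact permutation p = 0.0385), and end 41 held 1.87 ± 2.25% and 0.37 ± 0.63% (exact permutation p = 0.0444). End 41, on 50 reads in all, met the minimum of 20 reads through HC too, so its p is no support either. Averaged over the libraries of both genotypes, the most frequent ends were 71, 48 and 45, which were also the first 3 in CC; in HC they were 55, 54 and 71. End 71 held 6.82 ± 3.56% in HC and 13.4 ± 12.1% in CC (SD, n = 8 and 10; exact permutation p = 0.164). End 55 held 8.17 ± 7.63% and 2.69 ± 3.07% (exact permutation p = 0.0535), end 54 held 6.97 ± 5.06% and 4.32 ± 5.74% (exact permutation p = 0.356), and end 70 held 6.61 ± 8.18% and 2.62 ± 2.98% (exact permutation p = 0.176). All are unadjusted. End 48 held 6.45 ± 6.06% in HC and 7.33 ± 5.70% in CC, and end 45 held 6.04 ± 5.17% and 7.03 ± 4.24% (SD, n = 8 and 10), differences within the spread between libraries. The whole distributions of starts and of ends were 26.6 and 24.1 percentage points apart (one-sided exact permutation p = 0.206 and 0.415).

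Reads with an end in CCA, at 69, 70 or 71, made up a similar share in both genotypes: 15.5 ± 11.9% in HC (SD, n = 8) and 16.8 ± 13.6% in CC (SD, n = 10; exact permutation p = 0.83). HC male replicate 3 had 1.88% (Wilson 95% interval 1.26% to 2.77%), the lowest of these 8 HC libraries, and without it the sign turned, with HC higher by 0.25 points (exact permutation p = 0.972). Reads ending at 68, the last encoded base, were rare, at 2 of 1883 HC reads and 2 of 652 CC reads.

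Among the reads that end at 69 to 71, the complete CCA had a lower mean share in HC, but the difference did not pass. The intact share, ends at 71 over ends at 69 to 71, was 48.9 ± 26.3% in the 8 HC libraries with at least 5 such reads and 65.3 ± 24.2% in the 6 CC libraries (SD). The difference was -15.2 points (exact permutation p = 0.320), and -12.96 points without HC male replicate 3 (exact permutation p = 0.420). In females, HC replicates 4, 5 and 6 had 6 of 21, 13 of 14 and 3 of 10 such reads intact, and CC replicates 1, 2, 5 and 6 had 13 of 17, 7 of 8, 11 of 16 and 13 of 22. HC females 4 and 6 were thus below all 4 CC females and HC female 5 was above them. In males, HC replicates 1 to 5 had 9 of 31, 8 of 10, 6 of 24, 3 of 7 and 5 of 8 intact, and CC replicates 3 and 4 had 4 of 5 and 1 of 5. HC male replicate 4 had only 8 reads in all.

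The reads lacking 1 or 2 bases were unevenly spread over libraries. HC female replicate 4 had 15 reads that stop at 70 and 0 that stop at 69, HC male replicate 1 had 13 and 9, and HC male replicate 3 had 6 and 12. In CC the most was 5 reads at 69, in female replicate 6, and 4 reads at 70, in 3 libraries. Pooled over libraries, 55 of 127 HC reads (43.3%, Wilson 95% interval 35.0% to 52.0%) and 57 of 83 CC reads (68.7%, 58.1% to 77.6%) were intact; without HC male replicate 3 the HC value was 47.6% (49 reads intact, 38.2% to 57.1%). These intervals cover counting error alone and treat reads as independent, and the spread between libraries given above is wider.

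**Figure D4:**
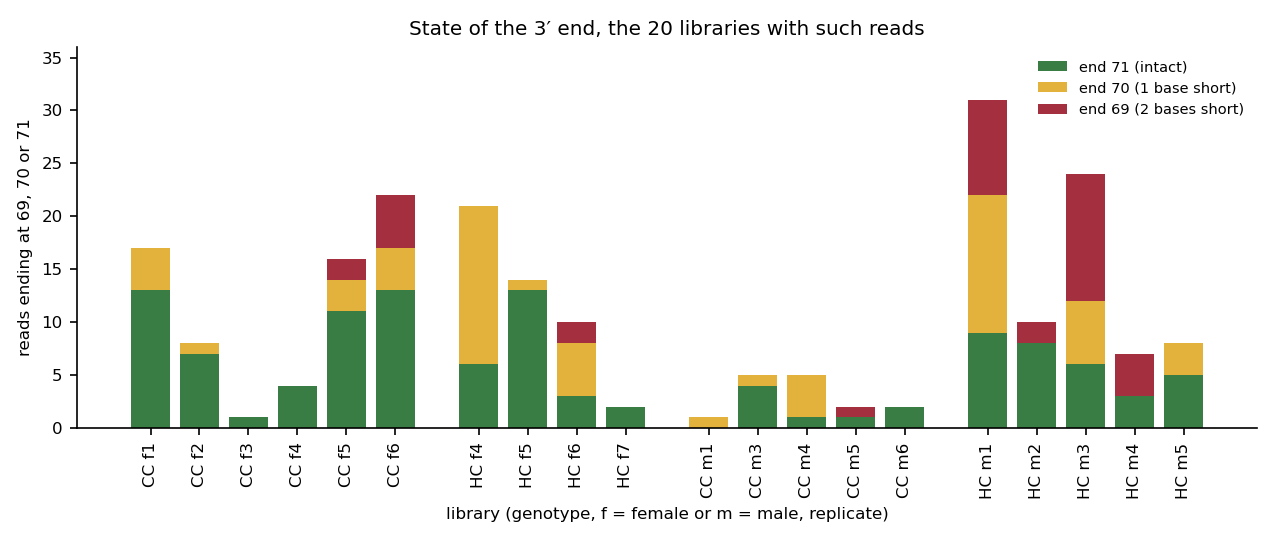
Number of reads that end at base 71 (intact 3′ end), 70 (1 base short) or 69 (2 bases short) in each of the 20 libraries that have any, ordered by genotype and sex. Reads short of base 71 are concentrated in HC female replicate 4 (15 of 21) and HC male replicates 1 (22 of 31) and 3 (18 of 24), while HC female replicate 5 has 13 of 14 intact.

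By fragment, 69 sequences with at least 10 reads were tested, and 0% were called by edgeR's quasi-likelihood test and 0% by the permutation test of shares. In CC, 24-45 and 24-44 had the most reads and the highest mean shares. In HC, the single fragment of most reads was 24-45 with HC male replicate 3 and 31-54 without that library. Without it, 31-54 had 20 reads (14 of them in HC male replicate 1), 31-55 had 18 and 24-45 had 17. All HC reads starting at base 24 then numbered 89 of 603. Fragment 31-55 had the highest mean share in HC with HC male replicate 3 (3.91%) or without it (4.41%). The fragment with most reads in all, 24-45, had 98 HC reads, 81 of them in HC male replicate 3, and 22 CC reads. It made up 2.91 ± 2.52% of reads in HC (SD, n = 8) and 4.19 ± 4.89% in CC (SD, n = 10; exact permutation p = 0.531, unadjusted). It was seen in 6 HC and 8 CC libraries. The shorter 24-44 made up 1.53 ± 2.58% and 4.13 ± 7.68%, and 24-43 2.08 ± 2.20% and 1.81 ± 2.46% (SD, n = 8 and 10). For 24-42 the shares were 0.715 ± 1.54% and 1.85 ± 3.31%. These fragments share a 5′ end and differ by 1 base at the 3′ end, and each overlapped between the genotypes.

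Fragments ending at base 40 and those starting at base 20 were read mostly in 1 library. For 24-40 there were 62 HC reads, 57 of them in HC male replicate 3, against 1 CC read; the other HC reads were 1 in female replicate 5 and 2 each in male replicates 2 and 5. For 20-45 there were 44 HC reads, 41 of them in HC male replicate 3, and 4 CC reads. For 20-40 there were 39 HC reads, 38 of them in that library, and 6 CC reads. As shares of a library the means were within the spread between libraries: 1.16 ± 1.60% in HC and 0.63 ± 1.98% in CC for 24-40, 0.754 ± 1.18% and 0.392 ± 0.954% for 20-45, and 0.461 ± 1.04% and 1.64 ± 3.93% for 20-40 (SD, n = 8 and 10). The HC means without HC male replicate 3 were 0.690%, 0.404% and 0.103%.

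**Figure D5:**
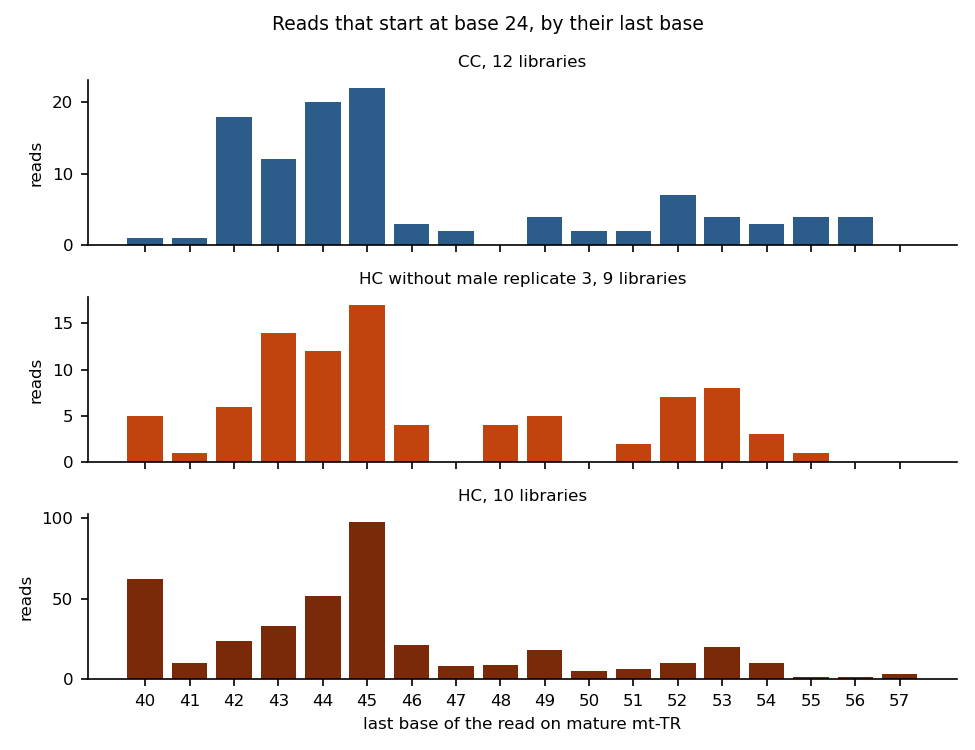
Number of reads that start at base 24, by their last base, summed over the CC libraries (109 reads), the HC libraries without male replicate 3 (89 reads) and all HC libraries (391 reads); the vertical scales differ. CC reads gather at ends 42 to 45. The bar at end 40 (62 reads) is tall only with HC male replicate 3; without it there are 5 reads.

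Start 31, the first anticodon base, was read in 7 HC and 7 CC of the libraries with at least 10 reads, and the most frequent fragments from it were 31-54 and 31-55. The 25 nt fragment 31-55 had 4, 1 and 6 reads in HC females 4, 5 and 6 and 6, 1 and 5 reads in HC males 1, 2 and 3. In CC it had 4 reads, all in female replicate 2. Its share was 3.91 ± 6.22% in HC (SD, n = 8) and 0.342 ± 1.08% in CC (SD, n = 10). Its unadjusted p was 0.0215 by the exact permutation test (adjusted p = 0.986) and 0.0056 by edgeR (log2 fold change 2.93, adjusted p = 0.104). The difference in share without HC male replicate 3 was 4.02 points (exact permutation p = 0.0185, unadjusted). With at least 20 reads per library the unadjusted exact permutation p was 0.10. Without CC female replicate 2, which holds all its CC reads, edgeR called it higher in HC (adjusted p = 0.0109). That fit leaves the fragment no CC reads by construction, so the call adds no support. The 24 nt fragment 31-54 had 29 HC reads in 5 libraries, 14 of them in male replicate 1, and 2 CC reads. Its edgeR log2 fold change was 2.39 (unadjusted p = 0.0225, adjusted p = 0.258). Both 31-54 and 31-55 met the minimum of 10 reads through HC, so their unadjusted p-values are no support for a difference.

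The following fragments, which run to the end of CCA, had 0 reads in HC male replicate 3, which allows a share of up to 0.23%. The 26 nt fragment 46-71 had 11 reads in each genotype, in 4 HC and 5 CC libraries, at 1.11 ± 2.13% and 2.56 ± 5.10% (SD, n = 8 and 10; exact permutation p = 0.639). The 21 nt fragment 51-71 had 3 reads in 2 HC libraries and 9 in 5 CC libraries, at 0.47 ± 0.99% and 3.84 ± 6.91% (SD, n = 8 and 10). Its edgeR log2 fold change was -2.01 (unadjusted p = 0.0357, adjusted p = 0.308), and the exact permutation p was 0.241. CC female replicate 4, with 13 reads, and CC male replicate 6, with 11 reads, held 2 reads of it each. The difference in share was -3.61 points, and -0.21 points with at least 20 reads per library (exact permutation p = 0.577). Fragment 30-46, named for its mean share, had 3 reads, all in CC male replicate 6, which held 11 reads.

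The lowest adjusted p of edgeR belonged to fragments of few reads. At 25-48, 3 HC reads, all in HC male replicate 3, stood against 7 CC reads in 2 libraries (log2 fold change -3.26, edgeR adjusted p = 0.0526). At 23-42, 3 HC reads in the same library stood against 8 CC reads in 3 (log2 fold change -2.84, edgeR adjusted p = 0.0553). Without batch as a covariate both were called (edgeR adjusted p = 0.023 each). Their exact permutation p-values, with each library counting once, were 0.500 and 0.349. Of the 69 fragments, 8 had an unadjusted edgeR p under 0.05, 5 higher and 3 lower in HC; by DESeq2 there were 0. Leaving out each library in turn gave 0 to 3 calls: 3 without CC female replicate 2 or CC male replicate 2, 2 without CC female replicate 1, CC female replicate 6 or CC male replicate 4, and 1 without HC female replicate 7, CC female replicate 5 or CC male replicate 5. Leaving out HC male replicate 3 gave 0 calls among 26 fragments.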

How the data were processed

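Small RNA from mouse lung was sequenced by RealSeq with a single-adapter, circularization-based preparation. The deposited table holds raw counts: for each library, how often each distinct *mt-TR* sequence was read, not normalized. Their methods describe quality control with FastQC, UMI-tools, trimming with cutadapt, mapping with Bowtie to *mt-TR* of the library's own mtDNA type allowing neither gap nor mismatch, and a filter against reads matching other places in mm10; which of these steps were applied to the lung libraries is not stated. The submitters' processing notes name FastQC 0.12.1, UMI-tools 1.1.6, cutadapt 5.0, BWA 0.7.18 and Bowtie 1.3.1. Mapping without mismatches leaves out reads with a misread base, such as those at some modified bases. One description of the series names liver; its title, sample labels and the methods name lung.

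Each sequence was placed on mature *mt-TR*, built from the GENCODE M21 transcript (GRCm38, the assembly of mm10) plus CCA; all 384 matched. Libraries were grouped by the labels. Shares used libraries with at least 10 reads, and the CCA state those with at least 5 reads ending at 69 to 71. The tests were two-sided exact permutations of genotype within sex and batch (Python 3.11.15, scipy 1.17.1), adjusted over 11 measures by Benjamini-Hochberg. Differences are averages over sex and batch, HC minus CC. Fragments with at least 10 reads were tested with edgeR 4.0.16 (quasi-likelihood, library size as normalization, sex and batch as covariates), with DESeq2 1.42.0 as an alternative, and adjusted over all fragments tested. Called means an adjusted p under 0.05. Scripts were tested on simulated data. Named fragments are the 8 of highest mean share, the 5 with most reads in HC and in CC, and any called; 25-48, 23-42 and the 3 positions were named after their values were seen. The classes, lists and tests were chosen with earlier results of these data known. Alternatives were other read minimums, single batches or sexes, no strata, distinct sequences, other normalizations and leaving out each library. A limit of 25 nt was tried in place of 30 nt; its own alternatives, and other minimums for the CCA state, were chosen after seeing the data.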

Additional observations from a re-analysis of the deposited data

Results flagged for a closer look

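HC male replicate 3 held 78.7% of the reads of the 6 HC males, far from the other 5, of which the next held 8.55%. Its share of the HC reads and several results without it are given above. Without this library the differences were -3.85 points for starts 1 to 23 and -5.38 for start 24. They were -0.92 for starts 32 to 47, -2.76 for starts 48 to 71 and 1.84 for reads of at least 30 nt. The length, start and end distributions were then 23.0, 28.7 and 25.6 points apart (one-sided exact permutation p = 0.121, 0.185 and 0.428). HC means at ends 71 and 55 were 7.73% and 8.69%. In CC female replicate 4, which held 13 reads, 10 drawn reads contained on average 8.27 distinct sequences, against 9.27 in the next of the 5 CC females. Among 42 combinations of group and measure examined, these 2 stood apart. If each were flagged at a rate of 0.05, about 2.1 would be. That number does not cover how far either library stood apart. The share of reads starting at 25 to 31 differed between the sexes in its HC minus CC difference by 26.4 points (exact permutation p = 0.0498, adjusted p = 0.548); 1 of 11 measures had an unadjusted p under 0.05 in that test. The CC females and CC males of batch 2 include libraries with 5 to 16 reads, and batch 3 holds males only. In males of batch 2 the prefix of the library name also went with genotype. The part of each in that difference was not tested.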

How the results depend on the processing

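No measure passed after adjustment over the 11, so what follows concerns unadjusted p-values and signs. Mean length stayed longer in HC under every alternative, but its exact permutation p rose above 0.05 with at least 1 read (1.48 nt) or 20 reads (0.77 nt) per library, in batch 2 alone (0.94 nt), without strata (0.93 nt), in females (1.5 nt) or males alone (0.40 nt), over distinct sequences (0.89 nt) and in replicate pairs (0.79 nt); leaving out 1 library gave 0.75 to 1.17 nt. The share of reads of at least 25 nt (14.9 points) lost its exact permutation p under 0.05 in males (8.36 points, p = 0.371) and with at least 20 reads (12.2 points, p = 0.0671). The share starting at 25 to 31 passed in batch 2 (15.1 points) and females (24.3 points) and reversed in males (-2.06 points), though not in males of batch 2 (3.10 points). Over distinct sequences the difference in that share was 6.09 points (exact permutation p = 0.241). Leaving out 1 library gave 7.87 to 15.1 points. The distance between length distributions had an unadjusted exact permutation p under 0.05 with at least 20 reads (19.7 points, p = 0.0343) and in batch 2 (23.0 points, p = 0.0254). Leaving out 1 library gave 20.3 to 24.3 points, with p under 0.05 in 3 fits (without CC male replicate 4, CC male replicate 6 or HC male replicate 5). For start distributions it gave 24.1 to 30.8 points, with p under 0.05 without CC male replicate 4 (exact permutation p = 0.0375).

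Small differences changed sign. With males alone, they were -1.53 points for reads of at least 30 nt, 1.90 for starts 1 to 23, 0.031 for start 24 and 2.07 for starts 32 to 47. With at least 1 read per library, they were 0.76 for starts 32 to 47, 0.35 for starts 48 to 71, 5.99 for ends 69 to 71 and 2.56 for fragment 46-71. With at least 20 reads, they were -1.16 for reads of at least 30 nt, 0.18 for starts 48 to 71, 4.40 for ends 69 to 71, -0.28 for distinct sequences in 10 reads and 0.41 for fragment 24-45. Over distinct sequences they were 1.3 for starts 1 to 23 and 0.19 for ends 69 to 71, and in females -0.12 for distinct sequences in 10 reads. Leaving out 1 library gave -0.0896 to 2.62 for reads of at least 30 nt, -4.09 to 1.17 for starts 1 to 23, -4.96 to 1.09 for starts 32 to 47, and -4.07 to 2.08 for ends 69 to 71. The cause was not tested. The count of edgeR calls was 0 to 3 without 1 library and 2 without batch as a covariate. The intact CCA share stayed lower in HC under every alternative, -26.7 to -7.62 points without 1 library.

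HC and CC libraries share replicate numbers, and the labels do not say that a number marks a shared animal or day. Over 6 pairs of the same sex and number, deviations correlated at -0.13 to 0.25, so the numbers were not taken to pair samples. The pair of male replicate 5 joins an HC library of batch 3 with a CC library of batch 2, so pairing by number mixes batches there. With the replicate block, starts 1 to 23 turned to 0.97 points, starts 25 to 31 stood at 15.1 points (exact sign-flip p = 0.0625) and edgeR made 0 calls. TMM factors ran from 0.23 to 12.3 in these sparse counts and gave 0 calls, as did no filter on low counts (53 of 384 at an unadjusted p under 0.05); edgeR's own filter left no fragment, so it gave no value. Depth limits all shares: 4 of 22 libraries had fewer than 10 reads.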
